A study of Mus musculus with 26 samples.

Results

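The gene segments of the T cell receptor loci were examined in mouse pro-B cells with and without depletion of Brg1. Brg1 is the ATPase subunit of SWI/SNF chromatin remodelling complexes that is encoded by Smarca4. Segments were chosen by name alone, as every listed gene called Tra, Trb, Trg or Trd followed by v, d, j or c and then by a digit, a hyphen or the end of the name. This gave 30 of 19404 listed genes in the Brg1 deletion experiment and 28 of 19719 in the Brg1 knockdown experiment, 36 segments in all, of which 22 were listed in both. The alpha locus gave 25 Trav segments in each experiment. The gamma locus gave the joining segments Trgj1, Trgj2 and Trgj3 in both, and the beta locus gave the constant segments Trbc1 and Trbc2 in the deletion experiment. No member carried a Trd name, but 5 of the listed Trav segments have a second name as delta variable segments ("dv").

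All 4 groups were cultured pro-B cells of strain C57/Bl6, grown from bone marrow B220+ cells for 7 days with IL7 and SCF. The deletion experiment compared 2 libraries of genotype Brg1+/+ x ER-Cre with 2 of genotype Brg1F/F x ER-Cre, and both groups carried the tamoxifen-activated recombinase ER-Cre and received 0.3 µM tamoxifen in the last 60 hours. The knockdown experiment compared 3 libraries of Rag1-/- cells given a control shRNA (Ctrl-sh) with 3 given an shRNA against Brg1 (Brg1-sh). Both shRNAs came by retrovirus on days 3 and 4, and infected cells were enriched with beads against hCD25. The promoter of ER-Cre, the age of the mice and the number of mice behind each library are not given in the sources used here, so p-values measure the spread between these libraries, which may be technical. Because the control cells of the knockdown experiment also lack Rag1, genotype, virus and tamoxifen differ together between the 2 experiments and cannot be told apart.

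T cell receptors are assembled from variable, diversity, joining and constant segments. The alpha and beta chains form one kind of receptor and the gamma and delta chains another. In developing T cells the Rag1 and Rag2 recombinase joins a variable segment to a joining segment, and splicing adds the constant segment. Before recombination the unrearranged segments are transcribed from their own germline promoters, and this transcription goes together with open chromatin at the segments. The delta locus lies inside the alpha locus, so some variable segments can serve both chains. In pro-B cells the recombinase acts on the immunoglobulin heavy chain locus instead. The gamma locus is a known target of the IL7 receptor through STAT5, and IL7 was in the medium of all 4 groups.

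The libraries held 5201377 to 11579403 reads. Smarca4 served as the check of the labels and fell in both experiments, from a mean of 17898 to 6067 normalized reads after deletion (adjusted p = 0.0008 in the authors' deposited table) and from 13340 to 6743 after knockdown (adjusted p = 0.0472 in the authors' deposited table). All 8 B lineage markers were listed in each experiment, with summed means of 50440 in the pro-B controls and 41517 in the Rag1-null controls. Of 13 T cell markers 10 were listed in the deletion and 8 in the knockdown experiment, and of 11 NK and innate lymphoid markers 10 and 7. Of 10 listed myeloid markers 4 were called lower after deletion, the granule protease genes Elane, Prtn3 and Ctsg and the surface protein gene Ly6c2, beside 0.742% of all genes. All 10 had lower means, with a median log2 ratio of -1.45. Those not called include Mpo, with means of 2177 and 513, and C1qb, with 12 and 210 reads in the controls and 136 and 8 after deletion. The summed means over all 10 myeloid markers were 8072 and 3784 normalized reads. Their part in the values below was not tested.

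Segment levels were low throughout. The deposited values are 1 mean per group, in reads divided by library size factors ("normalized reads"), and the members' means ran from 0.432 to 15.8 in the deletion experiment and from 0.282 to 18.0 in the knockdown experiment. The median mean over all listed control genes was 72.7 and 47.8. No listed mean was 0 in either experiment, so a segment without reads in a whole group would not be among the members. At these levels each mean is a sum of a few whole reads per library, and the reads of each library could be worked out from it for every member except Trav3-3 in the Brg1 shRNA group. Since no replicate number goes with these libraries, depth names them here. A library with 0 reads allows up to 3 reads, equal to 0.279 CPM (reads rescaled to a common library total) in the deeper and 0.294 CPM in the shallower pro-B control library. Such limits and the intervals below cover counting error only.

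No segment was called by the test of the deposited tables. After Brg1 deletion 0 of 30 members had an adjusted p under 0.05, where 1.47% of all listed genes did, and after knockdown 0 of 28 did, where the share was 0.218%. At an unadjusted p under 0.05 the authors' deposited tables also held 0 of 30 members, against 9.52% of all genes, and 0 of 28, against 2.74%. Among all genes with both means under 20, only 17 of 7328 and 23 of 8448 reached that unadjusted p. A second test with limma on the reads worked out for the deletion experiment called 0 of 26 testable members and 0 of 16814 genes at an adjusted p under 0.05. At an unadjusted limma p under 0.05 it held 1 member, Trgj2, against 2820 genes, or 16.8%.

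The direction of the means was more often lower than higher in the Brg1-depleted groups. The median log2 ratio of the means, Brg1-depleted to control, was -0.78 over the 30 members after deletion, with 24 lower and 6 higher, and -0.0014 over all genes. Over the 3 of these members with a mean of at least 10 it was -0.06. After knockdown it was -0.22 over the 28 members, with 17 lower and 11 higher, and -0.0028 over all genes. Genes with both means under 20 had medians of 0.02 and 0.05. By library, the 30 members summed to 146 and 108 normalized reads in the pro-B controls. In the deeper and shallower Brg1-deleted library they summed to 38.0 and 133, so the lower summed mean rests on the deeper one. Without that library the limma log2 ratio was above 0 for more of the testable members than below. The plot of group means by segment shows both directions among the Trav segments and 1 direction at the gamma joining segments.

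**Figure D1:**
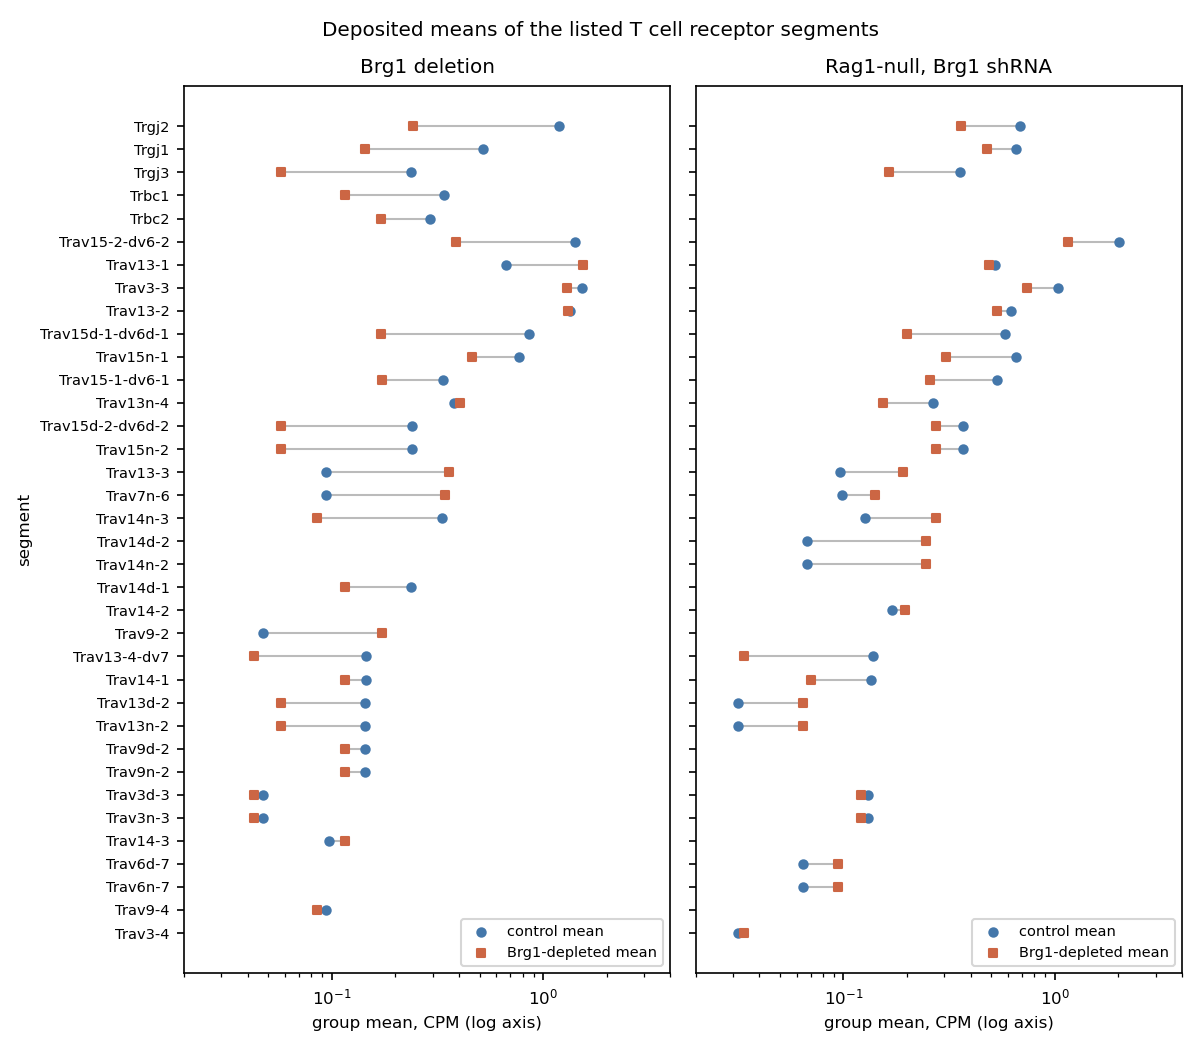
Deposited group means of the 36 segments, rescaled to CPM over all listed genes of the group (log axis), with circles for the control and squares for the Brg1-depleted mean of each experiment; a missing row means that the segment was not a member there. Trgj1, Trgj2 and Trgj3 have lower depleted means in both panels, and the Trav segments scatter in both directions, with 19 lower and 6 higher after deletion and 14 lower and 11 higher after knockdown.

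By the sum of its members, the gamma locus had the lowest ratio of the loci listed in each experiment. Its members are the joining segments of 3 gene clusters, each followed about 3.7 kb downstream by a constant segment. In mm10 they lie on chromosome 13, Trgj1 at 19210343 to 19210402 and Trgj3 at 19257117 to 19257176 on the plus strand, and Trgj2 at 19311245 to 19311304 on the minus strand. Each is a single exon of 60 bases, shorter than the 200 to 400 bp of the sheared fragments.

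Trgj2 was the member with the highest level per length. It had 14 and 11 reads in the pro-B controls and 3 and 2 after deletion. The groups did not overlap, as was so in the lower direction for 13.5% of resolved genes with both means under 20. The deposited means of 12.3 and 2.46 normalized reads differed by -2.33 on the log2 scale (p = 0.104, adjusted p = 0.907 in the authors' deposited table). The log2 ratio was -2.11 in limma, where the adjusted p was 0.209 with all libraries and 0.633 without the deeper control library.

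Trgj1 had 9 and 2 reads in the controls and 2 and 1 after deletion. Its groups did not overlap either, but the shallower control stood at 2.00 normalized reads and the deeper Brg1-deleted library at 1.73, less than 1 read apart. Trgj3 had 3 and 2 reads in the controls and 0 and 1 after deletion. The 3 joining segments together had 26 (95% Poisson interval 16.98 to 38.1) and 15 (8.40 to 24.7) reads in the controls. After deletion they had 5 (1.62 to 11.7) and 4 (1.09 to 10.2). The summed means were 20.2 and 4.49 normalized reads, a log2 ratio of -2.17. Leaving out any 1 library kept this ratio between -2.50 and -1.74. With 2 libraries against 2 an exact permutation test cannot go below p = 0.333, so none was run. In bulk RNA fewer cells that carry a transcript and less of it per cell cannot be told apart.

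In Rag1-null cells the gamma joining segments did not separate the groups. Trgj1 had 2, 4 and 7 reads in the control libraries, from the deepest to the shallowest, and 12, 1 and 2 in the Brg1 shRNA libraries. For Trgj2 the counts were 4, 3 and 7 against 7, 2 and 2, and for Trgj3 2, 1 and 4 against 3, 1 and 1. All 3 segments were therefore highest in the same library of each group, the shallowest control and the deepest Brg1 shRNA library. The summed normalized reads were 6.76, 7.54 and 30.7 in the controls and 17.1, 3.50 and 5.18 with the Brg1 shRNA. The summed means of 15.0 and 8.61 differed by -0.80 on the log2 scale, and without the shallowest control library the ratio turned to 0.27. The smallest deposited p of the 3 was 0.657, for Trgj2 in the authors' deposited table.

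The constant segments of the same clusters are listed as Tcrg-C1 to Tcrg-C4, older names of Trgc1 to Trgc4, and so fall outside the naming rule. They encode the constant region that splicing joins to the rearranged or germline joining segment, and they were far more abundant. Tcrg-C2 had 789 and 682 reads in the pro-B controls and 193 and 414 after deletion (p = 0.006, adjusted p = 0.2 in the authors' deposited table). Tcrg-C1 had 408 and 344 reads against 101 and 207 (p = 0.0047, adjusted p = 0.172 in the authors' deposited table). For Tcrg-C3 the counts were 142 and 112 against 13 and 76 (p = 0.0334, adjusted p = 0.535 in the authors' deposited table). None was called, although the 2 groups did not overlap for any of the 3, as was so for 29.3% of resolved genes with a control mean of at least 20 in the lower direction. Tcrg-C4 had 0 and 4 reads in the controls and 2 and 1 after deletion.

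Summed over Tcrg-C1 to Tcrg-C3, normalized reads came to 1306 and 1139 in the controls and to 265 and 811 after deletion. The 2 Brg1-deleted libraries thus stood far apart from each other. For Tcrg-C2 the limma log2 ratio was -1.35 over all libraries, -0.59 without the deeper Brg1-deleted library and -2.12 without the shallower one. Trgj2 had 2.59 and 2.33 normalized reads in the same 2 libraries. These are 3 and 2 reads, too few to show whether it shared this split. The bars of gamma locus reads by library show the joining and the constant segments side by side. In the knockdown experiment the summed Tcrg-C1 to Tcrg-C3 means were 752 and 573, a log2 ratio of -0.39, and the smallest of the 3 deposited p was 0.352, for Tcrg-C2 in the authors' deposited table.

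**Figure D2:**
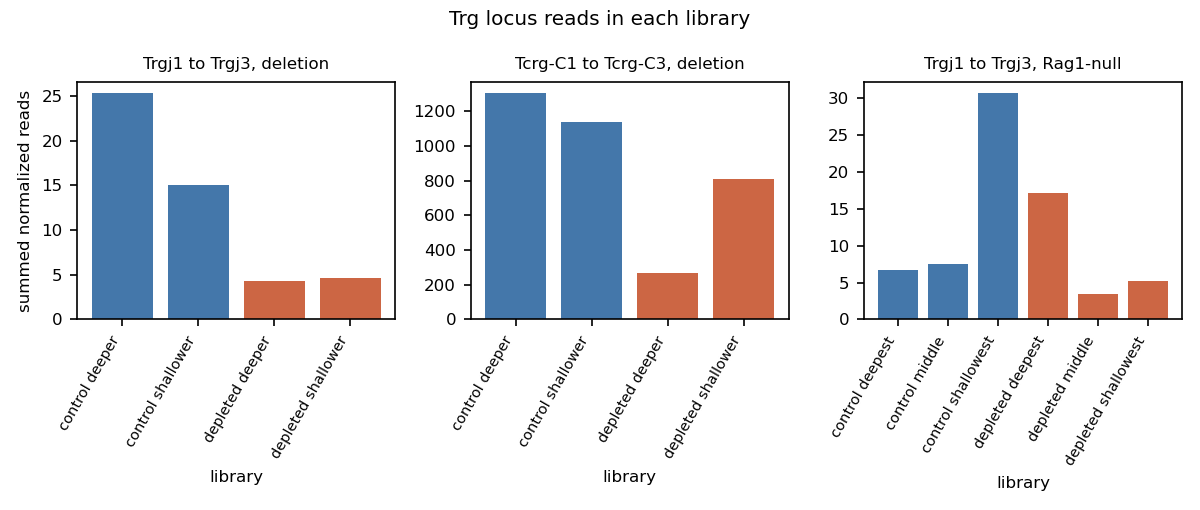
Summed normalized reads of the gamma locus in each library (linear axes from 0, 1 bar per library, blue for control and orange for Brg1-depleted). The joining segments sit at 25.4 and 15.0 in the pro-B controls and at 4.32 and 4.65 after deletion, the constant segments at 265 and 811 after deletion, and in Rag1-null cells 1 control library stands at 30.7.

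The beta locus was represented by its 2 constant segments. They encode the constant region of the beta chain, and in mm10 Trbc1 lies on chromosome 6 at 41538218 to 41539347 and Trbc2 at 41546730 to 41548181. Trbc1 had 0 and 7 reads in the pro-B controls and 0 and 2 after deletion. Trbc2 had 0 and 6 reads in the controls and 4 and 0 after deletion. Both groups thus contained a library without reads from a given segment, and the groups overlapped for both. The log2 ratios of the deposited means were -1.59 and -0.80, with p = 0.614 and p = 0.908 in the authors' deposited table.

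Of the T cell markers 9 of 10, and of the NK and innate lymphoid markers 8 of 10, were higher after scaling in the shallower control library, the one that holds the Trbc reads. The exceptions were Lat, an adaptor of T cell receptor signalling, with 166 and 80 reads, and the NK genes Nkg7, with 20 and 19, and Klrb1c, with 6 and 2. Of the myeloid markers with reads worked out, 6 of 9 were also higher in that library. The share of all genes higher there was not worked out, so these counts cannot be read as particular to the markers. The signalling chains of the T cell receptor, Cd3e, Cd3d, Cd3g and Cd247, had 12 reads in all in the deeper and 35 in the shallower control library, where Trbc1 and Trbc2 had 0 and 13. Cd3e alone had 0 and 10. In the Brg1-deleted libraries the 4 signalling chains had 22 reads in the deeper and 11 in the shallower library, and the Trbc segments 4 and 2. The 10 listed NK and innate lymphoid markers summed to 43 and 167 reads in the controls and 127 and 43 after deletion, and the 10 listed T cell markers to 338 and 513 against 1015 and 410. Cd2 alone had 114 and 327 of these T cell marker reads in the controls and 879 and 254 after deletion. Without Cd2 the T cell marker sums run the other way in both groups, with Lat at 37 and 117 after deletion. Ncr1, a defining NK receptor, had 0 and 8 reads in the controls and 3 and 0 after deletion. The part of such cells in the Trbc values was not tested. The Trav and gamma joining reads did not follow the same order, with 124 and 80 Trav reads and 26 and 15 gamma joining reads in the same 2 control libraries.

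The alpha locus held most members. The listed Trav segments lie on chromosome 14 between 1364.4 and 442.9 kb before the constant segment Trac, which RefSeq places at 54220521 to 54224198 in the same genome build (GRCm38). RefSeq names 130 Trav segments, of which 25 were members in each experiment. A variable segment encodes the part of the alpha chain that meets antigen, and its germline transcript starts at a promoter just before it.

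Trav reads summed to 124 (95% Poisson interval 103 to 148) and 80 (63.4 to 99.6) in the pro-B controls and to 35 (24.4 to 48.7) and 108 (88.6 to 130) after deletion. The control libraries therefore lay within the range of the Brg1-deleted ones after scaling, at 121 and 80.1 against 30.2 and 126 normalized reads. The summed means were 100.5 and 77.9, a log2 ratio of -0.37, and this turned to 0.32 without the deeper Brg1-deleted library. In Rag1-null cells the sums without Trav3-3 were 59.1, 81.0 and 54.6 normalized reads in the controls and 56.1, 32.4 and 57.0 with the Brg1 shRNA. With Trav3-3 the summed means were 74.1 and 54.8, a log2 ratio of -0.43. The groups overlapped in both experiments.

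Trav15-2-dv6-2, a variable segment shared by the alpha and delta chains, was the most abundant member over the 4 groups. It lies at 53649387 to 53649993 on chromosome 14. It had 26 and 4 reads in the pro-B controls and 1 and 6 after deletion, so that 1 control library carried most of the difference between means of 14.7 and 3.92 normalized reads (p = 0.318, adjusted p = 1 in the authors' deposited table). In Rag1-null controls it had 25, 13 and 12 reads, and with the Brg1 shRNA 21, 6 and 8. After scaling the 3 control values of 21.1, 12.3 and 20.5 overlapped the Brg1 shRNA values of 16.4, 5.25 and 8.29 in 1 library (p = 0.249, adjusted p = 1 in the authors' deposited table).

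All 6 listed members of its family, family 15, had a lower mean in both experiments. Their summed means were 39.9 and 13.2 normalized reads after deletion and 40.2 and 21.3 after knockdown, log2 ratios of -1.59 and -0.92. By library the sums were 49.7 and 30.0 in the pro-B controls and 4.32 and 22.1 after deletion, which did not overlap. In Rag1-null controls they were 37.2, 42.4 and 41.0, and with the Brg1 shRNA 32.7, 11.4 and 19.7, which did not overlap either. Among resolved single genes with a control mean of at least 20, 29.3% were lower without overlap after deletion. In the knockdown experiment this share is known only for genes with both means under 20, where it was 2.67%. The family was singled out after its values were seen and 2 of its members have the same values, so no test is given.

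Single members of family 15 were less clear than their sum. Trav15d-1-dv6d-1 had 12 and 6 reads in the pro-B controls and 4 and 0 after deletion (p = 0.206, adjusted p = 1 in the authors' deposited table). Its groups did not overlap there, as in the lower direction for 13.5% of resolved genes with both means under 20. In Rag1-null cells it had 5, 12 and 0 reads against 0, 0 and 5. Trav15n-1 had 7 and 9 reads in the pro-B controls and 0 and 8 after deletion, and 0, 4 and 8 against 9, 1 and 0 in Rag1-null cells. Both pairs of groups overlapped for Trav15n-1, and its reads moved between libraries of 1 group as far as between groups. Trav15-1-dv6-1 had 2 and 5 reads against 0 and 3 after deletion, and 6, 6 and 2 against 4, 4 and 0 after knockdown.

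The 5 segments that can also serve the delta chain are 4 of family 15 and Trav13-4-dv7. All 5 had lower means in the Brg1-depleted group of both experiments, where 50.1% and 50.3% of all genes did. Since 4 of the 5 belong to family 15, singled out after its values were seen, this is not a separate result. Their summed means were 31.0 and 8.41 normalized reads after deletion and 32.3 and 16.6 after knockdown. Trav13-4-dv7 itself had 0 and 3 reads in the pro-B controls and 1 and 0 after deletion.

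Family 13 had 4 members with a lower and 3 with a higher mean in each experiment. Trav13-1 had 9 and 5 reads in the pro-B controls and 5 and 23 after deletion, and Trav13-2 had 16 and 12 against 5 and 19. For both, the shallower Brg1-deleted library was the highest of the 4 and the deeper one the lowest after scaling. Over the 7 listed members there were 36 and 25 reads in the controls and 14 and 55 after deletion, so the higher summed mean after deletion, 38.0 against 30.1 normalized reads, rests on the shallower Brg1-deleted library. In the knockdown experiment the summed means were 15.1 in the control and 13.2 with the Brg1 shRNA. In Rag1-null cells Trav13-1 had 3, 12 and 0 reads in the controls and 0, 5 and 8 with the Brg1 shRNA, and Trav13-2 had 1, 13 and 2 against 3, 0 and 11. Trav13n-4 repeated the deletion pattern at a lower level, with 7 and 1 reads against 0 and 7. The values by library show the spread within each group at these segments.

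**Figure D3:**
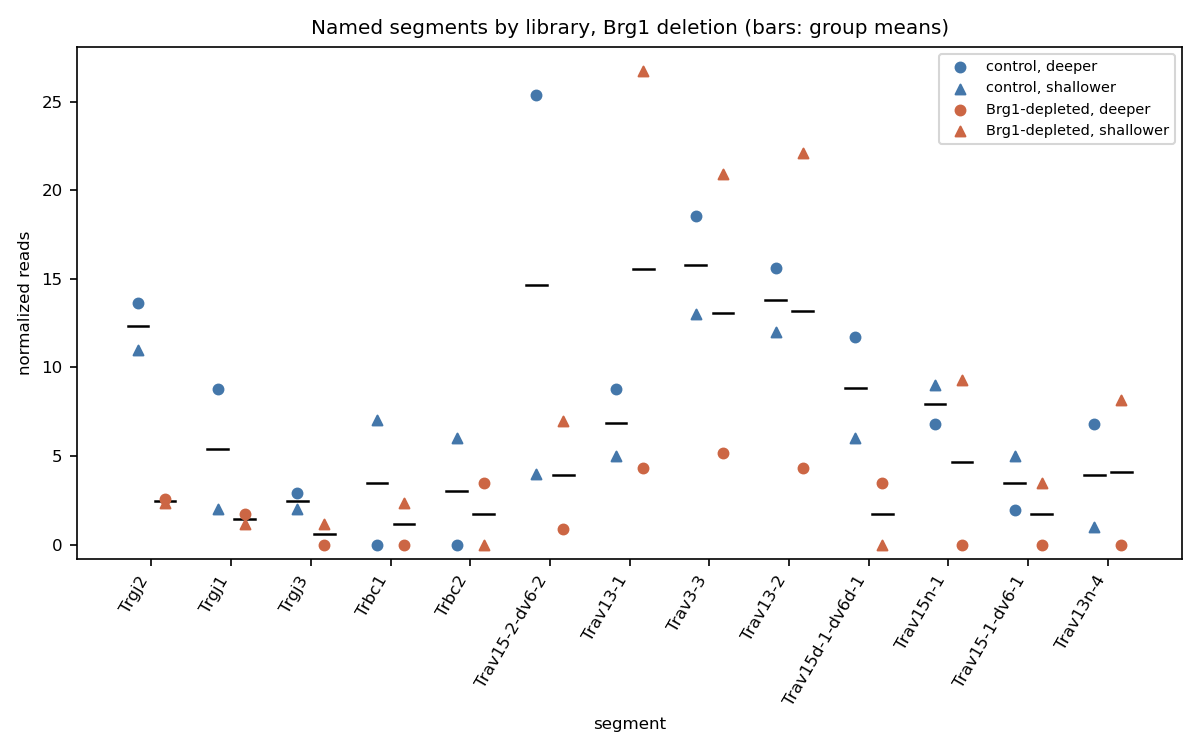
Normalized reads of the named segments in each library of the deletion experiment (linear axis, circles for the deeper and triangles for the shallower library of each group, blue for control and orange for Brg1-depleted, black bars for the deposited means). Trgj2 lies at 13.7 and 11.01 in the controls and at 2.59 and 2.33 after deletion, while Trav13-1 ranges from 4.32 to 26.7 within the Brg1-deleted group.

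Trav3-3 was the only well-read segment of family 3. It had 19 and 13 reads in the pro-B controls and 6 and 18 after deletion, with overlapping groups and means of 15.8 and 13.1 normalized reads (p = 0.695, adjusted p = 1 in the authors' deposited table). In Rag1-null controls it had 4, 22 and 2 reads, so that 1 library held most of them. Its Brg1 shRNA mean of 6.35 could be made up in 2 ways and was not resolved by library.

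**Figure D4:**
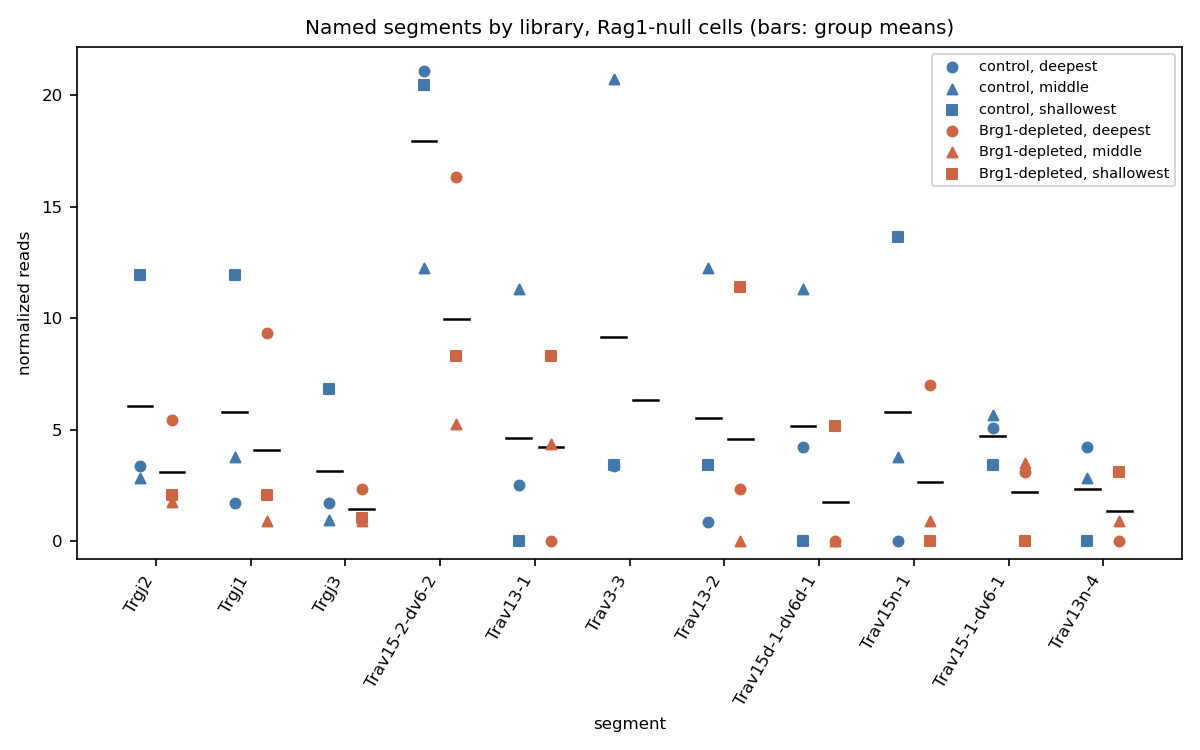
Normalized reads of the named segments in each library of the knockdown experiment (linear axis, circles, triangles and squares for the deepest, middle and shallowest library of each group, blue for control and orange for Brg1-depleted, black bars for the deposited means; no points for Trav3-3 with the Brg1 shRNA). The groups overlap for every segment drawn with points in both groups, and Trgj2 reaches 11.9 in 1 control library and 2.83 to 3.38 in the other controls.

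Across all members, the libraries of the 2 groups did not overlap for 7 segments in the lower and 2 in the higher direction after deletion. The 7 were Trgj1, Trgj2, Trgj3, Trav14n-3, Trav15d-1-dv6d-1, Trav15d-2-dv6d-2 and Trav15n-2, and the 2 were Trav13-3 and Trav7n-6. Of the 7, Trav15d-2-dv6d-2 and Trav15n-2 have the same values. Among the 7328 resolved genes with both means under 20, 13.5% were lower and 15.2% higher without overlap. After knockdown 0 of 27 resolved members were apart in either direction, against 2.67% lower and 4.16% higher of 7877 such genes.

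Some of these segments are near-identical copies, and their values are uncertain. The mouse alpha locus contains a duplication, whose copies carry "d" and "n" in their names. In the deletion experiment 4 such pairs had the same deposited means in both groups, which leaves 26 distinct patterns among the 30 members, and in the knockdown experiment 5 pairs did, leaving 23 among 28. Trav15d-2-dv6d-2 and Trav15n-2 both had 2 and 3 reads in the pro-B controls and 0 and 1 after deletion. Reads from the copies of such a pair cannot be told apart, and every sum above counts both. The Poisson intervals of the Trav sums treat all these reads as independent and so may be too narrow.

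The level of Trav segments followed no steady order along the distance to Trac. In CPM per kilobase of exon, the 3 highest pro-B control levels were those of Trav15-2-dv6-2 at 3.67, Trav3-3 at 3.64 and Trav13-2 at 3.43. These segments lie 570.5, 554.0 and 585.1 kb from Trac. In the Rag1-null control Trav15-2-dv6-2 had 5.24 and Trav3-3 had 2.47, the highest of the listed segments. The nearest members, Trav14-3 in the deletion and Trav3-4 in the knockdown experiment, stood at 0.108 and 0.0694 in their control groups. Trgj2 had 19.8 CPM per kilobase in the pro-B control and 11.4 in the Rag1-null control on the same scale, and Tcrg-C2 had 139 and 67.0.

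**Figure D5:**
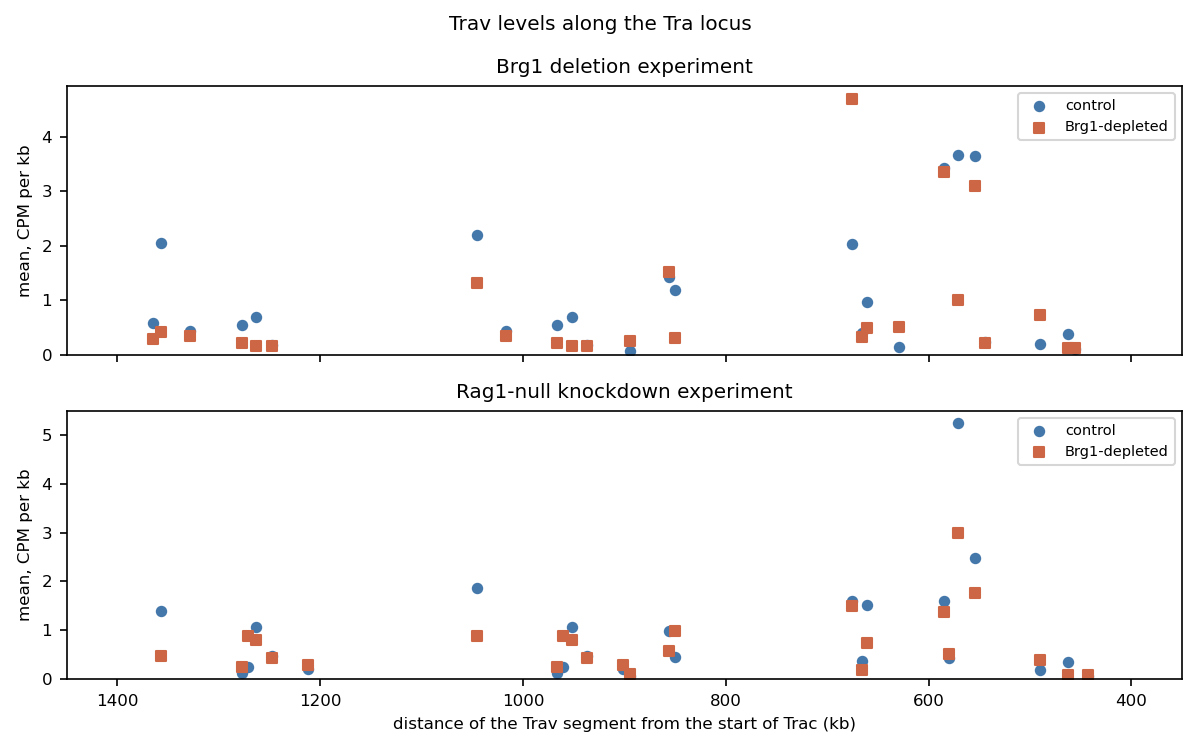
Group means of the Trav segments CPM per kilobase of exon (linear axis) by distance from the start of Trac in kb, with circles for the control and squares for the Brg1-depleted mean of each experiment. Trav15-2-dv6-2 at 570.5 kb has a control level of 3.67 and a depleted level of 1.00 in the upper panel and 5.24 and 3.00 in the lower, and segments nearer than 500 kb lie below 1 in both.

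Most of the segments were also read in control cells that lack Rag1. The tables were normalized separately, so the control means were rescaled to CPM over all listed genes and no test was made. Trav segments summed to 9.70 CPM in the pro-B control and 8.35 in the Rag1-null control, gamma joining segments to 1.95 and 1.69, and Tcrg-C1 to Tcrg-C3 to 118 and 84.7. Of the 22 members listed in both, 10 were higher and 12 lower in the Rag1-null control. Family 15 stood at 3.85 and 4.53 CPM, and family 13 at 2.90 and 1.70. Rag1 itself had 248 CPM in the pro-B control and 28.9 in the Rag1-null control. Whether those reads come from outside the mutated part was not tested.

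Few genes that act with the T cell receptor were called. Of the receptor's own complex and the pre-receptor, 4 of 5 genes were listed in the deletion and 3 in the knockdown experiment. Of these 0 were called, beside 1.47% and 0.218% of all genes. Cd3d, a signalling chain, had means of 9.92 and 2.18 normalized reads after deletion (p = 0.15 in the authors' deposited table) and 3.14 and 0.865 after knockdown. Cd247, another signalling chain, went the other way in both, with 4.45 and 8.39 after deletion and 2.58 and 6.48 after knockdown. The summed means of the listed complex genes were 23.4 and 15.9 after deletion and 6.86 and 8.13 after knockdown. Of the T cell receptor signalling list, 1 of 15 genes was called after deletion and 1 of 13 after knockdown, both lower, where 0.742% and 0.0406% of all genes were called lower. Lck, the kinase that starts receptor signalling and is also present in B lineage cells, fell after deletion from 204 and 191 reads to 66 and 59 (adjusted p = 0.0236 in the authors' deposited table). After knockdown Lck had means of 273 and 427 (adjusted p = 1 in the authors' deposited table). Ubash3a, a phosphatase family member that dampens receptor signalling, fell after knockdown from a mean of 548 to 219 (adjusted p = 0.0046 in the authors' deposited table). After deletion its reads were 822 and 363 against 17 and 94 (adjusted p = 0.135 in the authors' deposited table). The difference between the experiments was not tested for either gene.

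Of 17 T lineage regulators 0 were called in either experiment, where 1.47% and 0.218% of all genes were called. At these shares a list of 17 genes would most often hold 0 calls. Notch1, the receptor that directs progenitors to the T lineage, had means of 1086 and 564 after deletion (p = 0.0047, adjusted p = 0.172 in the authors' deposited table) and 620 and 600 after knockdown. Tcf7 and Bcl11b, transcription factors of early T cells, had 26.8 and 61.2, and 4.97 and 2.03, after deletion (adjusted p = 1 for both in the authors' deposited table). Of 17 recombination and locus opening genes 0 were called in either experiment, beside the same shares of all genes. Dntt, the polymerase that adds nucleotides at joints, had 1600 and 985 reads in the pro-B controls and 94 and 509 after deletion (p = 0.0043, adjusted p = 0.163 in the authors' deposited table). After knockdown Dntt had means of 840 and 330 (adjusted p = 1 in the authors' deposited table). Il7r, the IL7 receptor subunit upstream of the gamma locus, had means of 1420 and 1546 after deletion and 907 and 1022 after knockdown. Stat5a and Stat5b, its signal transducers, had 576 and 843, and 934 and 1190, after deletion.

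The genes next to the loci did not pass the test either. Within 500 kb of the outermost members, 4 listed genes lay by the alpha, 2 by the beta and 6 by the gamma locus in the deletion experiment, and 7 and 4 by the alpha and gamma loci in the knockdown experiment. Of these 0 were called, beside 1.47% and 0.218% of all genes, so 0 is the usual count for so few genes. Dad1, the neighbour beyond Trac, had means of 467 and 387 after deletion and 436 and 436 after knockdown. Stard3nl, next to Tcrg-C4, had 268 and 251 after deletion and 184 and 177 after knockdown, and Vps41 on the far side of the gamma locus 569 and 891 after deletion. Gpr141, also by the gamma locus, had 72.1 and 20.1 after deletion (p = 0.0023, adjusted p = 0.119 in the authors' deposited table).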

How the data were processed

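RNA-seq of 10 libraries in 4 groups was used, and the other 16 samples of the series were not analysed here. Polyadenylated RNA was made into strand-marked libraries with dUTP, per the labels' protocols. CASAVA, RSEM and DESeq with build mm10 are named in the submitters' processing notes, without versions or roles, and whether counting used the strand is not given in the sources used here. The group columns hold a signal deposited by the authors, the mean of reads divided by size factors, which fits the file headers and values. Per the file headers, the authors also computed the log2 ratio, the signed linear fold (a score), the p-value and its Benjamini-Hochberg adjustment. No member carries the authors' mark of confounded genes.

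The members and gene lists were chosen with earlier results of these data known. Named segments are the constant segments, those called, per locus the 6 highest levels, the 3 highest per kilobase and the 4 smallest p in each table, and per list up to 4 genes by adjusted p. Calls are those of the deposited tables at an adjusted p under 0.05, since these hold no counts per sample, so the planned count model was not used. Each mean was split into whole reads per library with a tolerance of 6e-05. This solved 100% of control and 99.97% of Brg1-deleted values, and in the knockdown table all means under 20. The solution was the only one for 95.5% and 97.0% of values in the deletion table and for 99.0% and 92.1% in the knockdown table. Within each deletion group the libraries were not duplicates of each other (mean chi-square per gene 19.7 and 28.6). Totals per library are approximate. For the 16814 deletion genes that had a mean of 1 or more and were solved in 1 way, limma 3.58.1 (R 4.3.3) was fitted without pairing, using a variance trend, to log2((reads + 0.5)/size factor). CPM are group means rescaled over all listed genes. Both steps were run on simulated data, whose spread between libraries was set beforehand and not fitted to these libraries. The runs therefore do not measure the error of either step at the spread seen here. Positions are those of mm10 in the files. All 36 members matched the RefSeq table of GRCm38 by symbol and overlapped their position there. Segment sequences were not used here.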

Additional observations from a re-analysis of the deposited data

How the results depend on the processing

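The counts of 0 called segments held under a threshold of 0.1 and with p-values adjusted anew over the listed genes. They also held with means of at least 10, with unmarked genes and, for deletion, in limma with all libraries. These settings had little room to change the counts. The lowest deposited adjusted p of any member was 0.907. Means of at least 10 left 3 members after deletion and 1 after knockdown, and no member was marked. With all libraries limma called 0 of 16814 genes. The counts of 1 called gene in the T cell lists held at 0.1. Leaving out each library in turn moved the summed log2 ratio after deletion from -1.73 to 0.32 for the alpha locus, where the value above 0 is without the deeper Brg1-deleted library, from -2.50 to -1.74 for the gamma locus and from -2.17 to -0.91 for the beta locus. Without the shallower control library the Trbc segments have no control reads and no ratio. No delta locus sum exists, since no member has a Trd name. After knockdown the range was -0.55 to -0.20 for the alpha locus, without Trav3-3, and -1.79 to 0.27 for the gamma locus, where the value above 0 is without the shallowest control library. With means of at least 10 the median after deletion was -0.06 over 3 segments, against -0.78 over all 30, and after knockdown -0.85, which leaves Trav15-2-dv6-2 alone. Of 60 alternatives, 55 either left a count of calls unchanged or kept the direction of a ratio within the spread between libraries. That spread is wide, with a log2 standard deviation of 0.89 for the median after deletion and 2.39 for the beta locus sum. Staying within it is therefore a weak criterion. Of the 55, 2 were chosen after seeing the data, the alpha sum without Trav3-3 (-0.42) and the controls scaled by their median ratio (-0.16 against -0.22). For the changed values the cause was not tested. No paired analysis was possible because the columns carry no replicate numbers. limma was not run for knockdown, where reads could be worked out only for low means. Depth limits these results to segments with a few reads per library.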

Other observations

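Variable segments of the immunoglobulin loci were also listed in both control groups. Ighv segments, of the heavy chain, were listed 67 times in the deletion table and 9 times in the knockdown table, and summed to 16.7 CPM in the pro-B control and 1.39 in the Rag1-null control, a log2 ratio of -3.59. Igkv segments, of the kappa light chain, were listed 67 and 30 times and summed to 30.7 and 15.8 CPM, a log2 ratio of -0.96. Iglv segments, of the lambda light chain, were listed 3 and 2 times and summed to 3.62 and 2.32 CPM, a log2 ratio of -0.64. For the Trav segments, listed 25 times in each table, the log2 ratio was -0.22. The tables were normalized separately, and no test was made.

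Constant segment reads outnumbered joining segment reads in all 3 gamma clusters. The constant segments have 503 to 519 bases of exon and the joining segments 60, and the ratios below are not corrected for length. In CPM per kilobase, Tcrg-C1 had 69.1 and Trgj1 8.67 in the pro-B control. On the same scale Tcrg-C2 had 139 and Trgj2 19.8, and Tcrg-C3 had 23.3 and Trgj3 3.96. The ratio of the deposited means was 68.9 for Tcrg-C1 to Trgj1, 58.9 for Tcrg-C2 to Trgj2 and 50.9 for Tcrg-C3 to Trgj3 in the pro-B control, and 113, 132 and 85.7 after deletion. By library, the ratio of the constant to the joining sum was 51.5 in the deeper and 75.9 in the shallower control, and 61.4 in the deeper and 174 in the shallower Brg1-deleted library, so the higher ratios after deletion rest on 1 library. In the Rag1-null control the same ratios were 61.7, 49.4 and 30.2, and with the Brg1 shRNA 68.1, 71.5 and 51.8. These rest on 1 to 14 joining segment reads per library or on none, and were not tested.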
